A study of Rattus norvegicus with 11 samples.

Results

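The genes described here build the presynaptic terminal: the proteins of the synaptic vesicle, the machinery that docks, primes and fuses it, the scaffold of the active zone, the enzymes and the transporter that make and load GABA, and the neurexins that tie the terminal to its partner. They were chosen by name, as a list of 45 symbols matched with no threshold on a measured value. Earlier results of these data were known when the list was chosen. Of the 45, 44 were found among 30560 genes by symbol and passed the filter on low counts that left 15742 genes tested. Expression of Cplx1 was not analysed here, while its promoter window is among those described below. In single rats the lowest counts of any of them were 8 reads for Rab3c, 8 for Syt5 and 11 for Erc2. Summed over the 44 genes, TPM (the deposited unit, which corrects for gene length and depth) was 7216 and 9455 in the Normal rats and between 1641 and 5688 in the injured rats.

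An action potential opens calcium channels at the terminal, and calcium binding to synaptotagmin triggers the fusion of a docked vesicle by the SNARE proteins SNAP25, syntaxin 1 and VAMP. Priming by Munc13 and RIM proteins and the scaffolds Bassoon and Piccolo set where and how readily this happens, after which the membrane is retrieved by endocytosis. In the striatum most neurons are GABAergic spiny projection neurons, and axons from cortex, thalamus and midbrain end among them. The neuronal RNA of a dissected striatum therefore comes mostly from neurons whose cell bodies lie there and much less from the incoming axons.

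The study compared striatum from adult male Sprague-Dawley rats given neither collagenase nor aspiration (Normal, 2 rats) with injured striatum on day 3 after injection, on the right side, of collagenase, an enzyme that opens vessel walls and causes bleeding. Common hemorrhage (IC, 3 rats) followed 0.2 U of collagenase VII-S in a volume of 1.0 µL, and severe hemorrhage (IS, 3 rats) followed 0.6 U in 3.0 µL. In IS-HA (3 rats) the IS dose was followed at 6 h by suction of the hematoma through a catheter. Each of the 11 rats gave 1 poly(A) RNA library of bulk tissue, with 6701301 (IS-HA replicate 2) to 18817645 (IC replicate 3) counts assigned to genes, and IC and IS differ in injected volume as well as in dose. Because each library mixes all cells of the dissection, fewer neurons and less RNA per neuron cannot be told apart. No group had an injection without collagenase, so the injection and the bleeding cannot be told apart. IS-HA rats were also anesthetized again for the catheter, and no group had the catheter without suction. The removal of blood, the catheter and the second anesthesia therefore cannot be told apart.

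The tissue label was checked against marker genes. The 12 medium spiny neuron markers summed to 6689 and 7067 TPM in the Normal rats, none of them at 0 in any rat, and the 8 cortical glutamatergic markers summed to 120 and 392 TPM there. The cortical sum ranged from 22.0 TPM in IS replicate 4 to 459 TPM in IS replicate 2, so rats of 1 group differed in it. Within their groups, 2 libraries stood apart on the 44 presynaptic genes. CPM here are counts scaled to library size times a TMM factor per rat. Mean log2 CPM relative to the Normal mean was -2.59 in IS replicate 4 against -1.38 and -1.78 in the other IS rats. It was -1.94 in IS-HA replicate 2 against -0.90 and -0.95 in the other IS-HA rats. These 2 libraries are also the smallest, at 7448205 and 6701301 counts, and the part of depth in their low values was not tested.

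Sequences upstream of 3 pairs of paralogs are shown because the members of each pair, close relatives, differed in the size of their change in the severe group (4.28 against 1.47 on the log2 scale for Sv2c and Sv2a), a choice made after the values were seen. They are the 250 bases before the annotated start, 5′ to 3′ on the gene's strand, from RefSeq on the build GRCr8 (the authors' counts were made on mRatBN7.2), and the capitals mark the GC box GGGCGG in either orientation.
Gad1 (chr3:75777202-75777451, plus strand): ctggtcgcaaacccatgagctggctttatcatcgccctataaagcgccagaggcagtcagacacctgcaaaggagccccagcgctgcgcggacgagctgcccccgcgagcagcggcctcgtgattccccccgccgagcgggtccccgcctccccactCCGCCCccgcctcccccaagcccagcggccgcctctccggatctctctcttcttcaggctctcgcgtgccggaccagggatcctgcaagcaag
Gad2 (chr17:89671468-89671717, plus strand): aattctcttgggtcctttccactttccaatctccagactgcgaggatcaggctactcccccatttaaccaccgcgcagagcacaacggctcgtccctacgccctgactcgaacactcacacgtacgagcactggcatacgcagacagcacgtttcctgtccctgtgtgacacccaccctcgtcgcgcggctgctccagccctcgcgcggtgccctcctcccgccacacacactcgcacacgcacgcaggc
Sv2a (chr2:186430113-186430362, plus strand): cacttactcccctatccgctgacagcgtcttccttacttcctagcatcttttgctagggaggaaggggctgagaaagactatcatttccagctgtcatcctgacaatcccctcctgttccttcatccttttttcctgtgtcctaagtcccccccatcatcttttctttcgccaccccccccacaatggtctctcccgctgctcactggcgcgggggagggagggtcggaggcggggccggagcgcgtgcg
Sv2c (chr2:29163169-29163418, minus strand): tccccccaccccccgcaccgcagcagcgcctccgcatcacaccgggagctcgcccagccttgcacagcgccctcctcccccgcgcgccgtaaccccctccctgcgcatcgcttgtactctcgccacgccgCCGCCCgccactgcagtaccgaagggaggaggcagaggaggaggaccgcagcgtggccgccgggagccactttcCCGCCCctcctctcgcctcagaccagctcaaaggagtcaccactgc
Unc13a (chr16:18415787-18416036, minus strand): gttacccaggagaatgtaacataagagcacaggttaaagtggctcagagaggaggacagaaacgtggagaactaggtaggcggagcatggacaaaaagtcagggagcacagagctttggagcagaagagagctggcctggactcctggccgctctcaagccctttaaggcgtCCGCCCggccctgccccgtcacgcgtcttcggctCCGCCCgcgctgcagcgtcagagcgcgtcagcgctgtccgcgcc
Unc13c (chr8:83553823-83554072, minus strand): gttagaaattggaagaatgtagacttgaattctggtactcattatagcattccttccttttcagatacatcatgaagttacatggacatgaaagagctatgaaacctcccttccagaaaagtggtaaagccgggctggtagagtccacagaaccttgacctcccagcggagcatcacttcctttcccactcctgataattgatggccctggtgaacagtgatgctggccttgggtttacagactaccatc

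Promoter windows of 300 bases (250 before and 50 after the start) were held for 34 of the 45 genes, Unc13b with 2 starts, which makes 35 windows. Their median GC content was 66.7%, against 51.7% over all 33469 windows, and ranged from 45.7% (Unc13c) to 76.7% (Erc2). A GC box on either strand stood in 26 of the 35 windows (74.3%), against 33.1% of all windows. The letters TATAAA stood in 1 window, that of Gad1 (2.86%, against 14.2% of all), and the cAMP response element TGACGTCA in 2, those of Syn1 and Vamp1 (5.71%, against 1.83%). The RE1 element, bound by the neuronal gene repressor REST, was matched in 0 of the 35 windows by its consensus, and in 0.0538% of all windows. Searches were on both strands, the cAMP response element reads the same on both, and none of these letters was tested for a role in the values below. Of the sequences shown, Sv2c and Unc13a each hold 2 GC boxes in their windows, Gad1 holds 1, and Gad2, Sv2a and Unc13c hold 0. A match is a description of letters, and nothing about a factor was drawn from it.

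Most of the presynaptic genes were lower after severe hemorrhage than in Normal rats. Of the 44 genes, 29 fell in IS against Normal and 0 rose by the cutoffs used here (adjusted p under 0.05 and at least 1 on the log2 scale), in edgeR's quasi-likelihood test and Benjamini-Hochberg adjustment over the 15742 genes, where 17% of all genes tested fell and 18.8% rose. At an unadjusted p under 0.05, 35 of the 44 were lower and 0 higher, beside 28% and 28.3% of all genes. The median log2 fold change of the 44 was -1.55, beside 0.02 for all genes tested. All IS rats lay below both Normal rats in normalized CPM for 37 of the 44, a pattern that 36.9% of all genes showed. The count of 29 became 18 without Normal replicate 3 (9.45% of all genes). It became 24 without IS replicate 4 (12.9% of all genes), 31 without IS-HA replicate 2 (18.1% of all genes) and 27 without both of the latter (15.6% of all genes), the last a choice made after seeing the data.

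**Figure D1:**
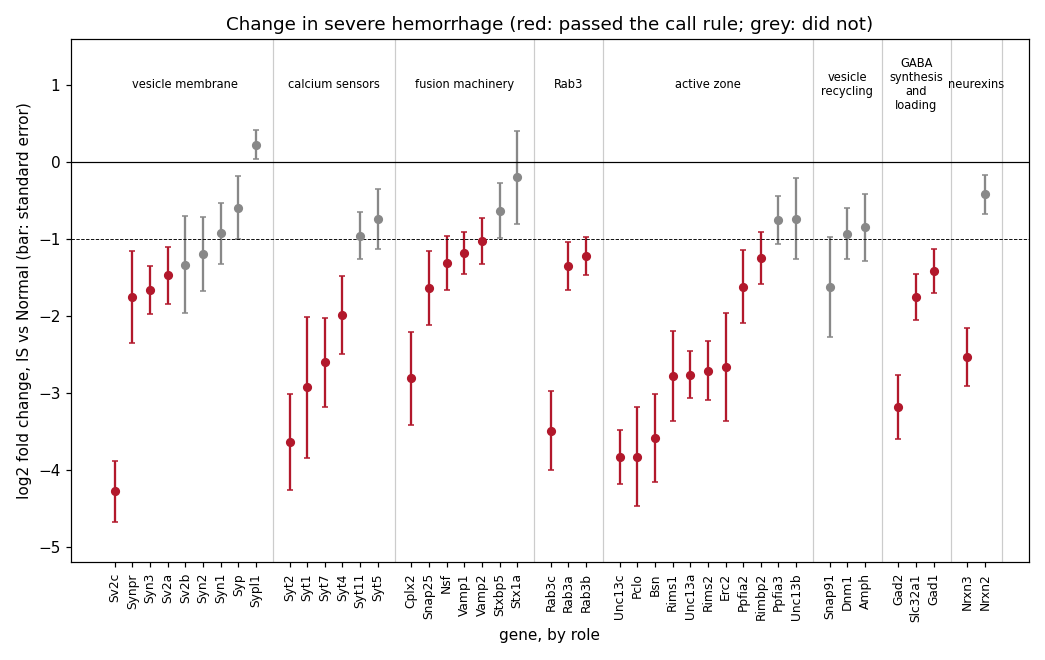
Log2 fold change in IS against Normal (y axis) for each of the 44 presynaptic genes (x axis, grouped by role and ordered by value), with bars of 1 standard error from the edgeR fit. Red points passed the cutoffs, grey points did not, and the dashed line is at -1. Values run from -4.28 for Sv2c to 0.23 for Sypl1, and the active zone and GABA groups hold few grey points.

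Genes of the active zone, the release site, had the lowest median log2 fold change of all roles (-2.71). Of 11, 9 fell: Unc13c by 3.83 on the log2 scale, Pclo (Piccolo) by 3.83, Bsn (Bassoon) by 3.58, Rims1 by 2.78, Unc13a by 2.76, Rims2 by 2.71, Erc2 by 2.67, Ppfia2 by 1.62 and Rimbp2 by 1.25. The liprin gene Ppfia3 (-0.76) and Unc13b (-0.74) did not pass the test.

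Unc13c (ENSRNOG00000056612) encodes a Munc13, a priming protein that opens syntaxin for assembly. Its TPM was 20.1 and 25.0 in the Normal rats, 6.61, 4.14 and 3.82 in IC, 1.65, 1.41 and 1.62 in IS, and 4.56, 1.61 and 5.08 in IS-HA. Every injured rat was below both Normal rats, and the IS rats were below every IC rat while IS-HA replicate 2 lay among them. The log2 fold change against Normal was -3.83 ± 0.348 (SE) in IS, with an adjusted p of 3.7e-05 in edgeR's quasi-likelihood test.

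Pclo (ENSRNOG00000005726), a giant scaffold protein of the active zone, had a TPM of 11.1 and 26.7 in Normal, 7.55, 4.72 and 3.17 in IC, 2.22, 1.28 and 0.43 in IS, and 6.02, 1.30 and 6.09 in IS-HA. The Normal rats themselves differed by more than the IC rats did, and no injured rat reached them. In IS the log2 fold change was -3.83 ± 0.643 (SE), with an adjusted p of 0.000968 (edgeR).

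Calcium sensors followed. Among 6 synaptotagmin genes, 4 fell in IS: Syt2 by 3.64, Syt1 by 2.93, Syt7 by 2.60 and Syt4 by 1.99 on the log2 scale, while Syt11 (-0.96) and Syt5 (-0.74) did not pass. Syt1 and Syt2 are the fast sensors for synchronous release, Syt7 a slower sensor with higher calcium affinity, and Syt11 a family member that does not bind calcium.

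Syt1 (ENSRNOG00000006426) stood at 148 and 324 TPM in Normal and at 96.5, 50.8 and 50.4 TPM in IC. It was 67.8, 19.1 and 6.92 TPM in IS and 131, 7.71 and 99.8 TPM in IS-HA, so IS-HA replicate 2 was more than 10 times lower than the other IS-HA rats. The IS change of -2.93 ± 0.913 (SE) passed the test (adjusted p = 0.0217, edgeR), while those of IC (-1.88, adjusted p = 0.159) and IS-HA (-1.66, adjusted p = 0.167) did not, although every injured rat was below both Normal rats.

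Syt2 (ENSRNOG00000004756) had a TPM of 31.7 and 58.3 in Normal, 11.8, 13.9 and 6.83 in IC, 5.11, 3.80 and 1.65 in IS, and 17.1, 2.18 and 5.83 in IS-HA. No injured rat reached the Normal rats. Syt11 had 549 and 705 TPM in Normal, 521, 425 and 452 in IC, 416, 363 and 189 in IS, and 586, 251 and 488 in IS-HA, with IS-HA replicate 1 inside the Normal range. Its IS change of -0.96 had an adjusted p of 0.0242 (edgeR) and missed the size cutoff only. Syt5, the weakest expressed of the 6, had 3.22 and 2.85 TPM in Normal, 2.36, 2.33 and 3.58 in IC, 2.45, 1.70 and 1.23 in IS, and 1.43, 1.45 and 2.1 in IS-HA.

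The fusion machinery held the most abundant member. Of its 7 genes, 5 fell in IS: Cplx2, a complexin that clamps and then aids fusion, by 2.81, Snap25 by 1.64, the SNARE-recycling ATPase gene Nsf by 1.31, Vamp1 by 1.19 and Vamp2 by 1.03. The tomosyn gene Stxbp5 (-0.63) and Stx1a (-0.20) did not pass.

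Snap25 (ENSRNOG00000006037), the plasma membrane SNARE, had 1180 and 1620 TPM in Normal, 753, 389 and 607 in IC, 708, 486 and 164 in IS, and 875, 338 and 721 in IS-HA. All 9 injured rats were below both Normal rats, and the 3 injured groups overlapped one another. The mean was 1400 ± 309 TPM (SD, n = 2) in Normal and 453 ± 274 TPM (SD, n = 3) in IS, and the fitted level in IS was 3.12-fold lower (log2 fold change -1.64 ± 0.481 SE, adjusted p = 0.0164, edgeR). In IC (-1.31, adjusted p = 0.0829) and IS-HA (-1.17, adjusted p = 0.0827) it did not pass.

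Vamp2 (ENSRNOG00000006989), the vesicle SNARE, had 690 and 739 TPM in Normal, 499, 330 and 453 in IC, 463, 405 and 190 in IS, and 496, 362 and 540 in IS-HA. All injured rats were again below both Normal rats. Its IS change of -1.03 lies just past the size cutoff (adjusted p = 0.0173, edgeR).

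Stx1a (ENSRNOG00000029165), the plasma membrane partner of Snap25, was scattered. Its TPM was 38.8 and 59.8 in Normal, 41.5, 14.7 and 20.5 in IC, 84.3, 34.2 and 12.3 in IS, and 40.8, 33.2 and 70.3 in IS-HA. The highest and the lowest of all 11 rats were both in IS. Stxbp5 ran from 7.05 TPM in IS-HA replicate 2 to 29.7 TPM in Normal replicate 3, with 17.2 TPM in the other Normal rat, 15.6, 17.8 and 13.3 in IC, 13.8, 12.5 and 17.8 in IS, and 17.0 and 25.0 in the other IS-HA rats.

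The 3 Rab3 genes, small GTPases that bind vesicles to RIM, all fell in IS: Rab3c by 3.49, Rab3a by 1.35 and Rab3b by 1.22. Rab3c (ENSRNOG00000011623) had a TPM of 10.7 and 29.0 in Normal, 4.48, 2.81 and 3.78 in IC, 2.31, 1.76 and 1.02 in IS, and 11.6, 2.93 and 7.27 in IS-HA. In TPM, IS-HA replicate 1 came into the Normal range, and every IS rat lay below every IC rat and every IS-HA rat. In normalized CPM, IS-HA replicate 1 (10.61) lay below both Normal rats (11.27 and 27.78).

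Proteins of the vesicle membrane split. Of 9 genes, 4 fell in IS: Sv2c by 4.28, Synpr (synaptoporin) by 1.76, Syn3 by 1.66 and Sv2a by 1.47. Sv2b (-1.33), Syn2 (-1.20), Syn1 (-0.93), Syp (-0.60) and Sypl1 (0.23) did not pass.

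Sv2c (ENSRNOG00000018094), a vesicle glycoprotein known to be enriched in the basal ganglia, had a TPM of 24.1 and 46.7 in Normal, 11.1, 7.85 and 6.41 in IC, 1.78, 1.85 and 1.70 in IS, and 8.64, 2.57 and 5.83 in IS-HA. The IS rats were nearly equal and lay below all 8 others, IS-HA replicate 2 being the next lowest. The fitted level in IS was 19.4-fold lower than in Normal, a log2 fold change of -4.28 ± 0.399 (SE) with an adjusted p of 4.3e-05 in edgeR's quasi-likelihood test.

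Syp (ENSRNOG00000059720), the classical vesicle marker synaptophysin, had 529 and 719 TPM in Normal, 509, 320 and 382 in IC, 701, 383 and 167 in IS, and 619, 552 and 675 in IS-HA. IS replicate 2 and all IS-HA rats lay within the Normal range, and the change did not pass the test in any comparison. Sypl1 (ENSRNOG00000009856), the broadly expressed relative of synaptophysin, had 74.0 and 90.6 TPM in Normal, 87.6, 98.1 and 80.8 in IC, 100, 78.6 and 105 in IS, and 109, 69.1 and 81.3 in IS-HA. The 4 groups overlapped throughout.

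All 3 genes for making and packing GABA, the transmitter of the spiny neurons, fell in IS: Gad2 by 3.18, Slc32a1 by 1.75 and Gad1 by 1.41. Gad1 and Gad2 encode the glutamate decarboxylases GAD67, found throughout the cell, and GAD65, bound to vesicles in terminals, and Slc32a1 encodes the vesicular GABA transporter.

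Gad2 (ENSRNOG00000018200) had 123 and 209 TPM in Normal, 77.1, 48.4 and 52.8 in IC, 22.5, 22.0 and 9.5 in IS, and 68.8, 20.4 and 50 in IS-HA. Gad1 (ENSRNOG00000000007) had 313 and 332 TPM in Normal, 247, 160 and 218 in IC, 125, 157 and 79.6 in IS, and 211, 127 and 145 in IS-HA. Slc32a1 (ENSRNOG00000015393) had 244 and 275 TPM in Normal, 175, 115 and 163 in IC, 65.6, 111 and 51.7 in IS, and 124, 93.1 and 94.2 in IS-HA. For each of the 3 genes all injured rats were below both Normal rats, and every IS rat was also below every IC rat in TPM, though in normalized CPM this held for Gad2 and not for Gad1 or Slc32a1.

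Of the neurexins, Nrxn3 fell by 2.54 in IS and Nrxn2 (-0.42) did not pass. Nrxn2 had 66.7 and 83.8 TPM in Normal, 76.0, 60.1 and 71.8 in IC, 72.4, 62.7 and 33.3 in IS, and 72, 67.0 and 80.9 in IS-HA, and all groups overlapped in TPM. None of the 3 vesicle recycling genes passed: Snap91, a clathrin adaptor, at -1.62 (adjusted p = 0.0568, edgeR), the dynamin gene Dnm1 at -0.93 (adjusted p = 0.0382, short of the size cutoff) and Amph at -0.85 (adjusted p = 0.122).

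**Figure D2:**
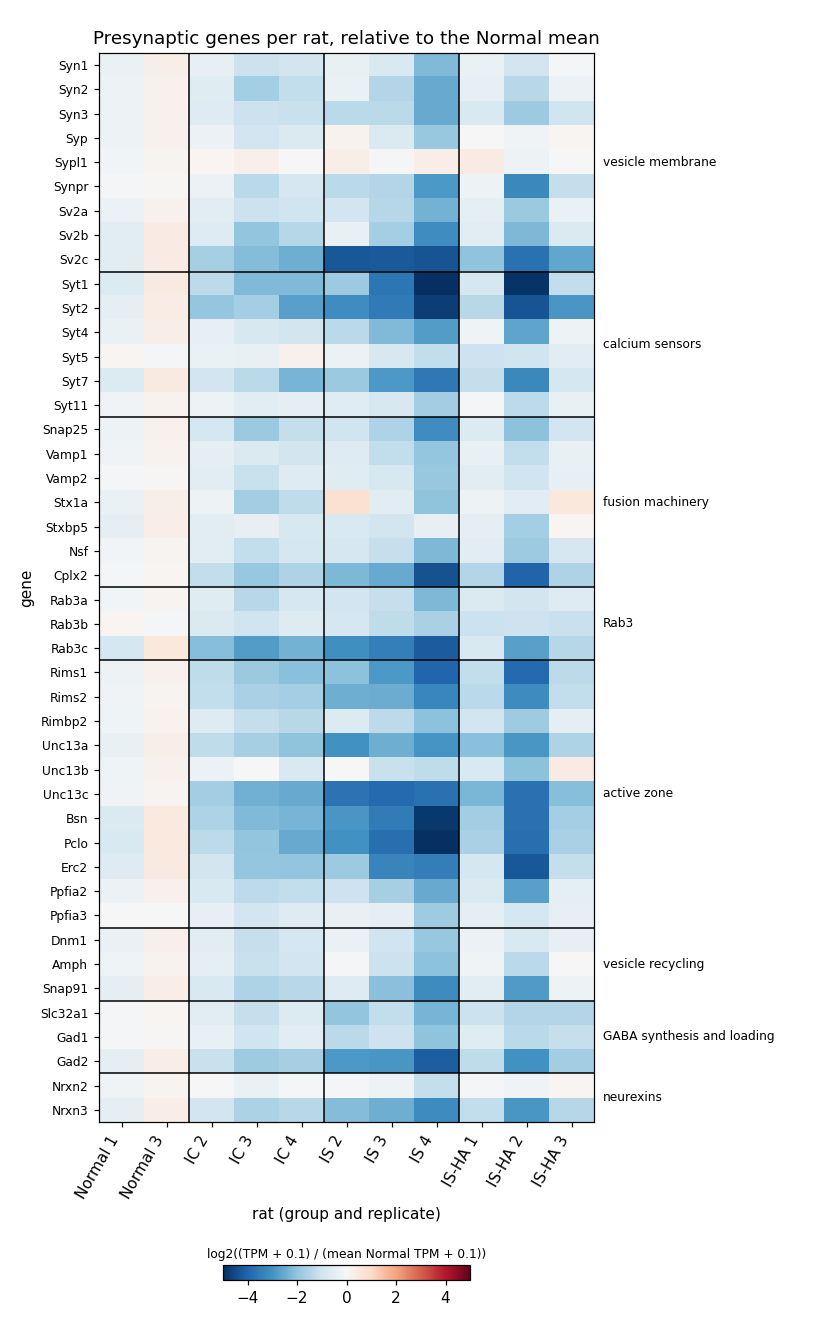
Heat map of the 44 presynaptic genes (rows, grouped by role) in each of the 11 rats (columns, by group and replicate), as log2 of TPM relative to the mean of the Normal rats after adding 0.1 TPM to both. Blue is below and red above the Normal mean. By mean log2 CPM over the 44 genes, IS replicate 4 and IS-HA replicate 2 are the lowest of their groups. Single genes depart from this, such as Stxbp5 and Sypl1, which are highest of the IS rats in IS replicate 4. Sypl1 stays near the Normal mean in all rats.

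Fewer of the genes passed after common hemorrhage. In IC against Normal 11 of the 44 fell and 0 rose (edgeR's quasi-likelihood test, where 2.66% of all genes fell and 10.9% rose), with a median log2 fold change of -0.99 beside 0.00 for all genes, and 40 of the 44 had every IC rat below both Normal rats in normalized CPM, as did 31.3% of all genes. The 11 were Rab3c (-2.45), Unc13c (-2.27), Sv2c (-2.11), Syt2 (-2.11), Bsn (-2.02), Pclo (-1.92), Unc13a (-1.67), Rims2 (-1.57), Gad2 (-1.52), Nrxn3 (-1.32) and Rimbp2 (-1.11). Of these 6 are active zone genes. Fusion machinery and vesicle recycling had 0 of 7 and 0 of 3 that passed, with Snap25 at -1.31 (adjusted p = 0.0829, edgeR). At an unadjusted p under 0.05, 29 of the 44 were lower and 0 higher, beside 14.5% and 19.8% of all genes. Without Normal replicate 3 the count of 11 became 1 (0.174% of all genes), and without Normal replicate 1 it became 6 (1.31%). Without either IC replicate 3 (0.618% of all genes) or IC replicate 4 (0.796%) it became 4. It became 14 without IS replicate 4 (3.63% of all genes), 18 without IS-HA replicate 2 (6.07% of all genes) and 21 without both (6.98% of all genes), although neither rat belongs to the groups compared.

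After aspiration, 18 of the 44 were lower and 0 higher in IS-HA than in Normal (edgeR's quasi-likelihood test, where 7.71% of all genes were lower and 15.1% higher), with a median of -1.04 beside 0.06 for all genes, and 36 of the 44 had every IS-HA rat below both Normal rats in normalized CPM, as did 29.2% of all genes. The lowest were Sv2c (-2.66, adjusted p = 0.000558), Unc13c (-2.64, adjusted p = 0.000327) and Syt2 (-2.46, adjusted p = 0.0109). All 3 GABA genes, 7 of 11 active zone genes and 2 of 3 Rab3 genes were among the 18, as were 2 of 9 vesicle membrane, 1 of 6 calcium sensor and 2 of 7 fusion genes. At the other end stood Nrxn2 (-0.04), Syp (-0.02) and Sypl1 (0.05), none of which passed. At an unadjusted p under 0.05, 25 of the 44 were lower and 0 higher, beside 19.1% and 25.7% of all genes. Without Normal replicate 3 the count of 18 became 4 (2.01% of all genes). Without IS-HA replicate 2 it became 14 (5.83% of all genes), without IS replicate 4 it became 19 (7.94% of all genes) and without both of the latter it became 15 (6.58% of all genes). The 3 comparisons with Normal share the same 2 Normal rats, which differed from each other on these genes (-0.20 and 0.20 in mean log2 CPM about their own mean).

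**Figure D3:**
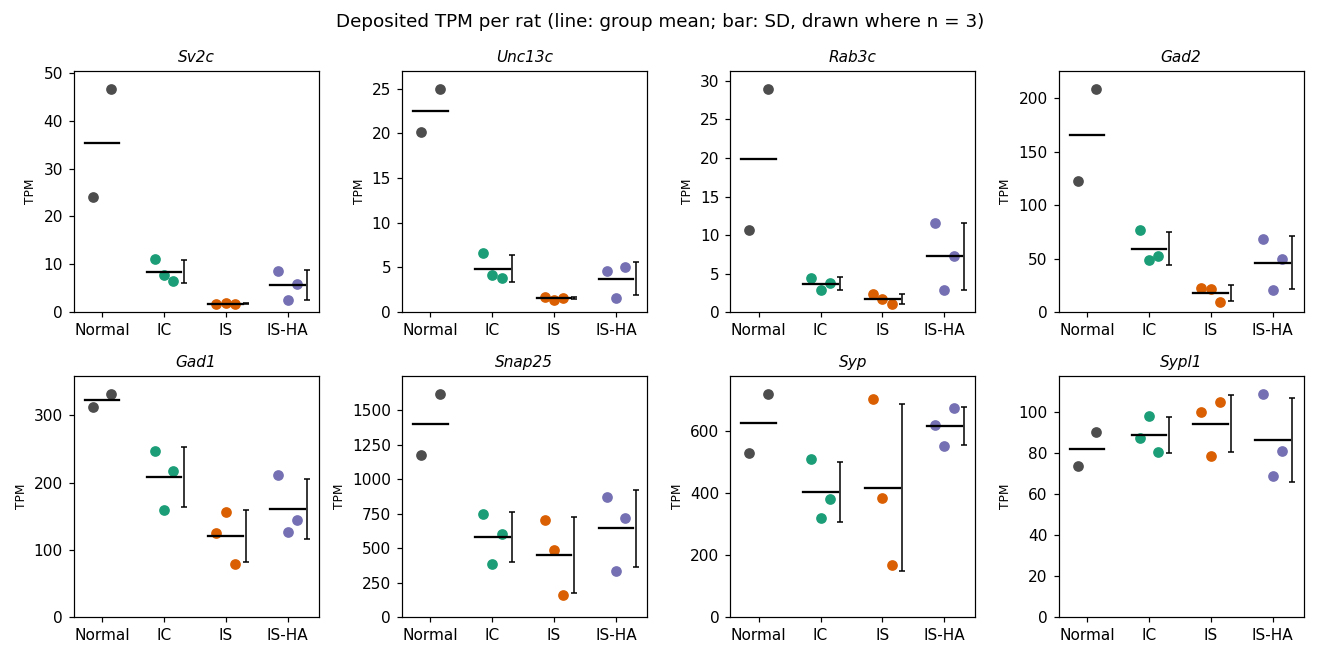
Deposited TPM (y axes, from 0) of 8 presynaptic genes in each rat (points) by group (x axes), with the group mean as a line and the SD as a bar for groups of 3. The means of Sv2c, Unc13c and Gad2 are lowest in IS, where Gad2 runs from 9.5 to 22.5 TPM. For Unc13c and Gad2, IS-HA replicate 2 lies within the IS range. Syp and Sypl1 overlap between Normal and the injured groups.

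Dose was compared directly in IS against IC. By edgeR's quasi-likelihood test 0 of the 44 passed in either direction, as did 0% of all genes. At an unadjusted p under 0.05, 14 of the 44 were lower and 0 higher, beside 11.7% and 10.5% of all genes, and in 14 of the 44 every IS rat was below every IC rat in normalized CPM, beside 18.7% of all genes. The median log2 fold change was -0.52, beside 0.00 for all genes. The lowest values were those of Sv2c (-2.17 ± 0.369 SE, adjusted p = 0.143), Pclo (-1.91 ± 0.581 SE, adjusted p = 0.156) and Gad2 (-1.66 ± 0.381 SE, adjusted p = 0.146), and the highest those of Stx1a (0.80), Sypl1 (0.17) and Syp (0.08). DESeq2's Wald test called 8 of the 44 lower (2.2% of all genes) and limma voom with a weight per rat called 9 (2.81% of all genes). Of these, 7 were called by both: Sv2c, Rims2, Unc13c, Bsn, Pclo, Gad2 and Nrxn3. Without IS-HA replicate 2, a rat of neither group, edgeR called 10 lower: Sv2c, Syt2, Syt4, Rims2, Unc13a, Unc13c, Bsn, Pclo, Gad2 and Nrxn3 (3.87% of all genes). Without IS replicate 4 it called 0 (0% of all genes). Without both of these rats, a choice made after seeing the data, it called 3 lower, namely Sv2c (-2.18, adjusted p = 0.0382), Unc13c (-1.63, adjusted p = 0.0382) and Gad2 (-1.39, adjusted p = 0.0382), and 0.899% of all genes.

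Aspiration was compared directly in IS-HA against IS. Here too 0 of the 44 passed in edgeR's quasi-likelihood test, which called 0% of all genes lower and 0.00635% higher. At an unadjusted p under 0.05, 10 of the 44 were higher and 0 lower in IS-HA, beside 5.58% and 3.36% of all genes. In 5 of the 44 every IS-HA rat was above every IS rat in normalized CPM, namely Sv2c, Rab3a, Rab3c, Unc13c and Gad2, beside 4.96% of all genes. In TPM, IS-HA replicate 2 lay within the IS range for Unc13c (1.61, against 1.41 to 1.65) and Gad2 (20.4, against 9.5 to 22.5). The median log2 fold change was 0.54, beside 0.05 for all genes. Rab3c (2.02 ± 0.485 SE, adjusted p = 0.483), Pclo (1.69 ± 0.580 SE, adjusted p = 0.540) and Sv2c (1.62 ± 0.373 SE, adjusted p = 0.453) had the highest values, and Sypl1 (-0.17), Syt5 (-0.16) and Stxbp5 (0.06) the lowest. DESeq2 called 2 of the 44 higher, Sv2c and Rab3c (0.28% of all genes), and limma voom 4, Syt4, Rims2, Unc13c and Gad2 (1.24% of all genes). Without IS-HA replicate 2 edgeR called 7 higher: Rab3c (2.31), Pclo (2.06), Sv2c (1.88), Syt4 (1.64), Gad2 (1.58), Unc13c (1.48) and Rims2 (1.27), beside 2.48% of all genes. Without IS replicate 4 it called 0 (0% of all genes), and without both of these rats 0 (0.0624% of all genes). This comparison and that of IS with IC share the 3 IS rats, so a low value in IS lowers the one and raises the other.

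Between IS-HA and IC, 0 of the 44 passed in either direction in edgeR's quasi-likelihood test (0% of all genes) and 0 had an unadjusted p under 0.05, beside 2.38% of all genes lower and 2.59% higher. DESeq2 called 0.0572% of all genes in each direction and limma voom 0%. The median was -0.02, beside 0.03 for all genes. Every IS-HA rat was below every IC rat in normalized CPM for 1 gene, Syt5 (-0.71), and above for 2, Syp (0.65) and Dnm1 (0.38), against 4.36% and 4.66% of all genes. The lowest after Syt5 were Sv2c (-0.55) and Slc32a1 (-0.51), and the highest were Rab3c (0.98), Stx1a (0.93) and Syp (0.65).

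Proportions within a family shifted in some families and overlapped between groups in others. Gad2 made up 28.2% and 38.7% of the summed TPM of Gad1 and Gad2 in Normal, 23.8%, 23.2% and 19.5% in IC, 15.3%, 12.3% and 10.7% in IS, and 24.5%, 13.8% and 25.6% in IS-HA. The IS rats lay below all IC rats, which lay below both Normal rats, and IS-HA replicate 2 lay within the IS range. Nrxn3 made up 31.5% and 38.8% of the 2 neurexin genes in Normal, 22%, 18.9% and 18.4% in IC and 11.3%, 10.7% and 12.2% in IS. In IS-HA it made up 19.6%, 7.49% and 16.2%, with IS-HA replicate 2 below every IS rat. Sv2c made up 8.74% and 10.6% of its family in Normal, 4.91%, 5.58% and 4.10% in IC, 0.923%, 1.6% and 2.97% in IS, and 3.56%, 2.98% and 2.37% in IS-HA. In the Munc13 family Unc13c made up 31.0% and 26.5% in Normal, 15.9%, 11.5% and 17.1% in IS and 24.5%, 17.3% and 19.1% in IS-HA. Vamp1 kept between 14.1% and 22.2% of the VAMP sum in every rat, and Rims1 between 46.3% and 65.1% of the RIM sum, with the groups overlapping in all 6 comparisons for both families. Rab3a made up between 79.7% and 87.7% of the Rab3 sum and overlapped in all comparisons other than IS-HA against Normal, while Rab3c made up 2.14% and 4.91% in Normal and 0.751% to 0.847% in IS. The families shown were picked after their values were seen, so the shares are given without a test.

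**Figure D4:**
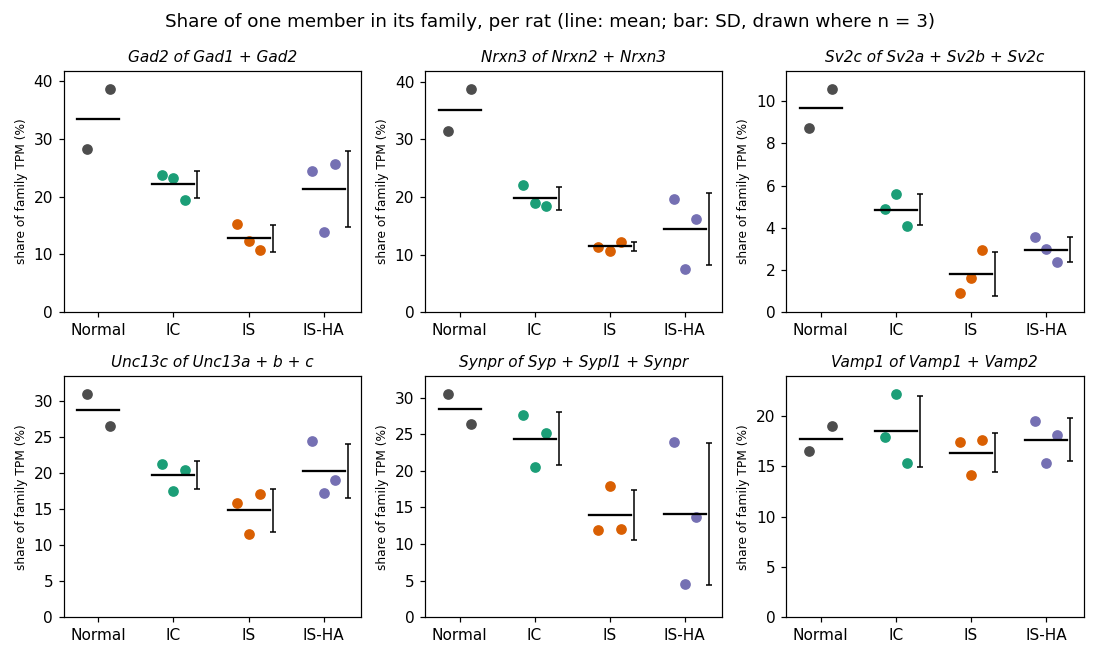
Share of 1 gene in the summed TPM of its family (y axes, percent, from 0) per rat (points) by group (x axes), with the group mean as a line and the SD as a bar for groups of 3. The IS points of Gad2 and Nrxn3 lie below all IC points, while those of Vamp1 overlap with every group.

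Markers of neurons and of other cells also moved in IS against Normal. Of 12 general markers, 9 fell in IS against Normal, Map2 furthest at -3.23, and 0 rose, and the median was -1.40. Their summed TPM was 4143 and 4930 in Normal, 2142 to 3013 in IC, 1079 to 2867 in IS and 2703 to 3367 in IS-HA, with none at 0 in any rat. Of 12 medium spiny neuron markers 11 fell in IS, Pde10a furthest at -4.99, and of 8 interneuron markers 7 fell. The summed TPM of the medium spiny markers was nearly the same with aspiration, at 2331 ± 1220 (SD, n = 3) in IS and 2335 ± 862 (SD, n = 3) in IS-HA. That of the interneuron markers was 206.8 ± 47 in IS and 309.7 ± 53.5 in IS-HA. The 8 cortical glutamatergic markers gave 0 calls in any comparison in edgeR's test. In the same comparison 9 of 10 microglia and macrophage markers rose in IS, Cd68 furthest at 6.92, from a summed 247 and 352 TPM in Normal to 3905 to 4967 in IS. All 6 neutrophil markers tested rose as well (median 7.23). Of 8 oligodendrocyte markers 4 fell and 0 rose (median -0.97), with a summed TPM of 17950 and 18500 in Normal and 6380 to 10740 in IS. Of 8 astrocyte markers 1 fell, the glutamate transporter gene Slc1a2 at -3.74, and 1 rose, Gfap at 3.16. The part of these shifts in the fall of the presynaptic genes was not tested.

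As a description of how far the genes moved beyond the neuron markers, libraries were scaled by the 12 markers instead of by all genes. That scaling raised the median log2 fold change of all genes in IS against Normal to 1.78. On it, 22 of the 44 genes had a negative value in IS against Normal, where 43 had one before. By the test, 11 of the 44 genes were lower in IS than in Normal (edgeR, where 1.91% of all genes were lower): Sv2c (-2.55), Pclo (-2.39), Syt2 (-2.12), Bsn (-2.09), Unc13c (-2.05), Rab3c (-1.92), Syt1 (-1.63), Gad2 (-1.59), Cplx2 (-1.36), Rims1 (-1.31) and Rims2 (-1.07). Sypl1 (2.09), Nrxn2 (1.19) and Stx1a (1.16) were higher, as were 67.4% of all genes. In IS-HA 5 were lower, Sv2c (-1.84), Unc13c (-1.83), Syt2 (-1.70), Bsn (-1.38) and Cplx2 (-1.31), beside 0.889% of all genes, and in IC 0 were lower, beside 0.0445% of all genes. The 12 are general neuron markers. When scaled by all genes, their mean log2 CPM in IS relative to Normal was -1.64, against -1.92 for the 44 genes. It was -2.15 for medium spiny, -2.13 for interneuron and -1.24 for cortical glutamatergic markers, and no offset by these lists was run.

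**Figure D5:**
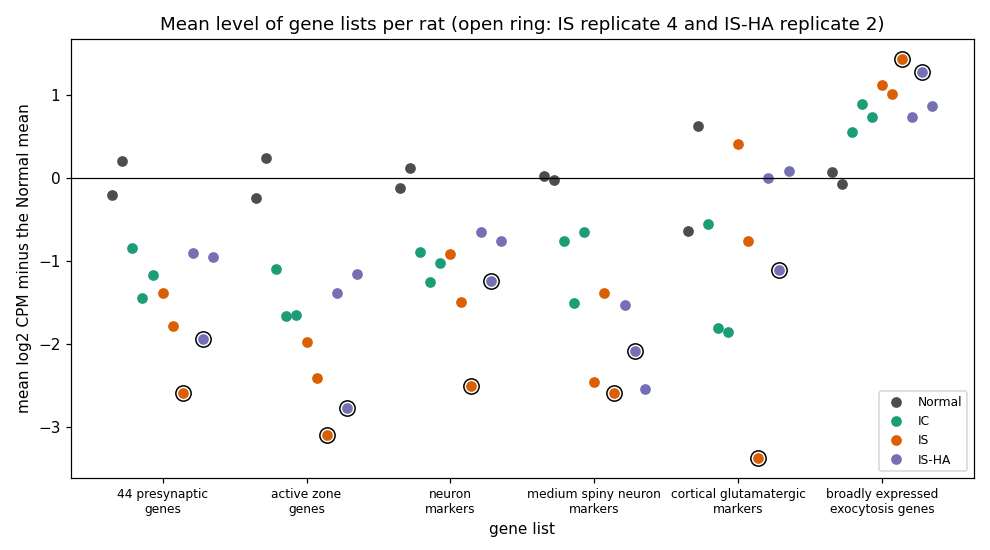
Mean log2 CPM of 6 gene lists (x axis) in each rat, relative to the mean of the Normal rats (y axis). Colors give the group, and open rings mark IS replicate 4 and IS-HA replicate 2, the lowest of their groups for the presynaptic and active zone genes. The mean of the broadly expressed exocytosis genes, which include genes of granule release in blood cells, lies above Normal in all injured rats.

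Other genes of the release pathway were counted for comparison. Of 48 further presynaptic genes 32 fell in IS against Normal and 1 rose, with a median of -1.49, beside 17% and 18.8% of all genes. Doc2b (-3.84), a calcium-binding priming factor, and Stxbp5l (-3.55), a second tomosyn, fell furthest. Slc18a2 (3.05), the vesicular monoamine transporter, rose, from 0.0447 and 0.274 TPM in Normal to between 1.13 and 1.63 TPM in IS, a low level throughout. The 20 genes listed as broadly expressed exocytosis genes include genes of granule release in blood cells. Of the 20, 0 fell and 9 rose in IS, with a median of 1.01, beside the same shares of all genes. The part of the blood-cell genes in that rise was not tested. Rab27a (3.20) and Unc13d (2.96), which serve granule release in blood cells, rose furthest, while Vamp7 (-0.54), a SNARE of lysosomal exocytosis, was the lowest and did not pass the size cutoff. In IC (edgeR, as above) 8 of the 48 fell and 1 rose and 4 of the 20 rose, beside 2.66% and 10.9% of all genes, and in IS-HA 14 of the 48 fell and 1 rose and 6 of the 20 rose, beside 7.71% and 15.1%.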

How the data were processed

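RNA-seq was deposited for 11 rats (Normal 2, IC 3, IS 3, IS-HA 3), as raw read counts per gene and as TPM that the authors computed from the counts by dividing by gene length and scaling every rat to the same sum. The submitters' processing notes name fastp 0.20.0, FastQC 0.11.9, HISAT2 2.1.0, SAMtools 1.9, featureCounts, DESeq2 and the build mRatBN7.2. The annotation release and strand setting are not given in the sources used here, so antisense and overlapping genes cannot be separated.

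Groups came from the labels, with 1 library per rat. Members and comparison lists were chosen with earlier results of these data known. Genes were matched by symbol. Counts were tested with edgeR 4.0.16 (R 4.3.3) by quasi-likelihood after filterByExpr and TMM scaling, in 1 fit of 4 groups (common dispersion 0.0691), and p-values were adjusted by Benjamini-Hochberg over 15742 genes. A gene was called at an adjusted p under 0.05 and an absolute log2 fold change of at least 1, the cutoffs in the study's methods. Fold changes come from counts and levels from TPM. The code was tested on simulated data. With 2 Normal rats, p-values rest on a spread shared over the groups. A count of 0 allows up to 3 counts, 0.159 to 0.448 CPM per library, which covers counting error only.

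Values in every rat are given for 9 preset genes and, per comparison, for the 3 genes with the lowest and the 3 with the highest log2 fold change. Genes of other lists are those at the ends of their list in IS against Normal. Alternatives were DESeq2 1.42.0, limma 3.58.1 voom with quality weights, other scalings (1 of them without 24 hemoglobin and mitochondrial genes), other filters, other samples in the fit, each rat left out, a replicate block and an offset by 12 neuron markers. Leaving out both low libraries was chosen after seeing the data. Replicates differed by more than sampling noise (chi-square per gene of 12.1 to 92.9). Rat promoters come from RefSeq (GRCr8).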

Additional observations from a re-analysis of the deposited data

How the results depend on the processing

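The direction of the median over the 44 genes held against Normal in all leave-one-out fits, at -1.22 to -0.84 in IC, -1.82 to -1.23 in IS and -1.22 to -0.83 in IS-HA, as did that of IS against IC (-0.81 to -0.28) and IS-HA against IS (0.24 to 0.92), while that of IS-HA against IC took both signs (-0.183 to 0.182). Counts of genes called depended more on the settings. Genes lower in IC against Normal were 20 by limma voom (6.9% of all genes) and 21 with only the groups compared in the fit (6.88%). They were 21 without both IS replicate 4 and IS-HA replicate 2, 0 with the neuron marker offset and 1 to 18 with 1 rat left out (0.174% to 6.07% of all genes). Genes lower in IS against Normal were 11 with the offset, 3 then being higher, and 18 to 37 with 1 rat left out. The 18 came without Normal replicate 3 (9.45% of all genes) and the 37 without IS replicate 2 (18.1% of all genes). Genes lower in IS-HA against Normal were 11 with only the groups compared (3.99% of all genes), 5 with the offset and 4 to 19 with 1 rat left out. The 4 came without Normal replicate 3 (2.01% of all genes). Genes lower in IS against IC were 8 by DESeq2, 9 by limma voom, 3 without both low libraries and 0 to 10 with 1 rat left out, and genes higher in IS-HA against IS were 2 by DESeq2, 4 by limma voom and 0 to 7. Of 11 same-numbered pairs, 2 had deviations correlated over 0.1 (-0.441 to 0.324 over the pairs). With 2 or 3 rats per group, such correlations cannot tell whether same-numbered rats shared a day or cage. The labels do not say either. With the replicate block the genes lower against Normal were 1 in IC (0.0953% of all genes), 14 in IS (5.52%) and 9 in IS-HA (3.71%). The block also turned Syp in IS against IC to -0.0707. Scaling by library size alone moved the median of all genes to 0.14 in IC, 0.15 in IS and 0.18 in IS-HA against Normal, and turned Nrxn2 (0.0807) and Syp (0.10) in IS-HA against Normal. With the offset, which moved the median of all genes to 1.06, 1.78 and 0.95, genes of the 44 with a negative value against Normal went from 43 in each comparison to 21 in IC, 22 in IS and 27 in IS-HA. Only the 3 lowest and 3 highest genes of a comparison, and in IS against Normal also the preset genes, were followed singly, and among these the sign turned in IC for Syt5 (0.84) and Nrxn2 (0.88), in IS for Nrxn2 (1.19), Stx1a (1.16), Syp (0.87), Vamp2 (0.55), Gad1 (0.26) and Syt11 (0.66) and in IS-HA for Nrxn2 (0.88) and Syp (0.90), and for Stxbp5 (-1.03) in IS-HA against IS. Stx1a in IS against Normal turned to 0.23 without both low libraries. With 1 rat left out, values near 0 took both signs for Stx1a in IS against Normal (-1.02 to 0.225), Sypl1 in IC (-0.0224 to 0.136) and IS-HA (-0.0801 to 0.13) against Normal, Nrxn2 (-0.142 to 0.0554) and Syp (-0.175 to 0.136) in IS-HA against Normal, Syp (-0.449 to 0.433) and Stx1a (-0.0198 to 1.3) in IS against IC, and Syt5 (-0.32 to 0.0706) and Stxbp5 (-0.332 to 0.352) in IS-HA against IS. The causes were not tested. Depth limits the weakest genes, since Rab3c and Syt5 had 8 reads in a library, and 2 Normal rats limit every comparison with Normal.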
